A study of Mus musculus with 28 samples.

Results

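The neuregulins and the ErbB receptors are a ligand and receptor system of 8 genes, and their levels were followed here through neuronal differentiation in mouse cells, after loss of topoisomerase IIβ (Top2β), and in neurons exposed to ICRF-193, which inhibits type II topoisomerases. The members were named by symbol: the ligand genes Nrg1, Nrg2, Nrg3 and Nrg4 and the receptor genes Egfr, Erbb2, Erbb3 and Erbb4. Each of the 8 had 1 probe set with a single gene symbol, among 19938 genes measured. Egfr, the receptor of epidermal growth factor, was included although it does not bind neuregulins itself.

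Neuregulins are membrane-anchored growth factors with an EGF-like domain that binds ErbB3 or ErbB4. ErbB2 binds no ligand of its own and acts as the preferred dimer partner, and ErbB3 has little kinase activity, so the receptors signal in pairs. In the cortex, ErbB4 is known mainly from inhibitory interneurons, Nrg3 from projection neurons that contact them, ErbB3 from the oligodendrocyte and Schwann cell lineages, and Egfr from progenitors and glia.

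The 28 Affymetrix whole-transcript arrays of total RNA, all from strain 129SvEv, fell into 12 groups. Wild-type and Top2β knockout cells were taken as embryonic stem (ES) cells, as neuronal progenitors (NP) and at TN day 2, with 2 arrays for each genotype and stage, and at TN day 6, with 3 arrays each. TN is a stage name of the labels for the cultured neurons and is not spelled out there. Cells at TN day 5 had been given DMSO, the solvent, or 50 µM ICRF-193 renewed every 24 hours, starting at TN day 2, with 2 arrays each. Cortical glutamatergic neurons isolated at E16.5, an embryonic day, had been given DMSO or ICRF-193, with 3 arrays each, and their exposure is given in the labels only by the sentence written for the TN cells. The labels do not describe the knockout allele, how many clones it came from, or whether the arrays of a group came from separate cultures, so the p-values measure the spread between these arrays, which may be technical.

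The Top2b probe set was lower in the knockout arrays at every stage, by 1.29 on the log2 scale in ES cells and by 2.31, 2.41 and 2.31 at NP, TN day 2 and TN day 6. ES knockout array 1 stood apart: its correlation with the wild-type ES mean over all genes was 0.972, against 0.996 for array 2, and its mean over 10 mesenchymal genes was 10.08 against 7.96. The pluripotency gene Pou5f1 was at 11.27 in wild-type ES cells and at 5.30 or less in each later wild-type or DMSO group, and the neuronal gene Dcx rose from 5.20 in ES cells to 12.28 at TN day 2. In the cortical DMSO arrays the cortical glutamatergic markers Tbr1, Neurod6 and Slc17a7 were at 10.14, 10.55 and 7.65, but the interneuron genes Gad2 and Sst (9.34 and 10.96) and the glial genes Pdgfra and Aldoc (9.57 and 11.24) were measured there too. Other glial genes were lower: the astrocyte genes Gfap and Aqp4 lay near 6.29, the median of all values on the arrays. The 9 astrocyte genes averaged 7.96 there and the 11 oligodendrocyte lineage genes 6.73. The TN cells carried Slc17a6 (10.45 at TN day 6) but had Tbr1 and Neurod6 at 5.12 and 4.75. These are bulk samples, in which fewer cells of a type and less RNA per cell cannot be told apart.

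Nrg3 and Erbb4 were the members that moved most, and they moved together, so the 250 bases before their annotated start sites are shown. RefSeq promoter sequences (GRCm38.p6) were matched for 5 of the 8 members: Nrg3, Nrg4, Egfr, Erbb2 and Erbb4. The Nrg3 window is chr14:39473089-39473338 and the Erbb4 window chr1:69108060-69108309, both on the minus strand and written 5′ to 3′ toward the start site. Capitals mark each CG dinucleotide.
Nrg3: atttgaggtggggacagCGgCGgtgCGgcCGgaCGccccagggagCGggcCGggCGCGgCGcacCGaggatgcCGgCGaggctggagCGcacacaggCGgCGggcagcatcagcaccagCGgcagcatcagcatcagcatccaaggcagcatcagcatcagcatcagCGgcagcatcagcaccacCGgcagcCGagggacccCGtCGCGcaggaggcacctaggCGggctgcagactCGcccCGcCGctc
Erbb4: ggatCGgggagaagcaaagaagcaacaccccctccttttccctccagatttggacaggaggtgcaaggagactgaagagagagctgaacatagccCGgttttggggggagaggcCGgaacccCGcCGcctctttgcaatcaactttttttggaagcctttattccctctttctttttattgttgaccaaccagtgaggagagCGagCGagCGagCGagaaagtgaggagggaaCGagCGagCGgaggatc
The Nrg3 window held 27 CG dinucleotides, more than 91.4% of 32851 RefSeq promoters, and the Erbb4 window held 12, more than 66.5%. The median promoter held 6. The other windows held 16 (Erbb2), 11 (Egfr) and 10 (Nrg4). Both strands were also searched for short motifs. The E-box CAGCTG, found in 13% of all promoters, was in no member's window. The E-box CAGATG, found in 14.4%, was in none either. The GC box GGGCGG, found in 32.7%, was there 1 time in the Egfr window and in no other. The TATA box TATAAA, found in 12.4%, was in none. No shared motif of this short list thus marked the Nrg3 and Erbb4 windows, and they differed in CG content.

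The first comparison followed the members through wild-type differentiation. Values are log2 expression values, and a gene was called higher or lower at an adjusted p under 0.05 over all 19938 genes in limma's moderated test. From ES cells to progenitors 3 members rose (Nrg3, Erbb2, Erbb4) and 3 fell (Nrg1, Egfr, Erbb3), against 21.7% of all genes called higher and 24.5% called lower. From progenitors to TN day 2, 2 rose (Nrg3, Erbb4) and 2 fell (Erbb2, Erbb3), against 21.6% and 26.6%. From TN day 2 to TN day 6, 3 rose (Nrg1, Nrg2, Nrg3) and 3 fell (Egfr, Erbb2, Erbb4), against 16.7% and 11.9%. These successive steps share arrays with one another and with the knockout comparisons.

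Among the ligands, Nrg3 climbed at every step. Its wild-type arrays read 4.44 and 4.86 in ES cells, 5.59 and 5.45 in progenitors, 7.93 and 8.02 at TN day 2, and 9.14, 9.27 and 9.23 at TN day 6. No array of a stage overlapped the stage before it, and the steps were 0.87 ± 0.15 (SE), 2.46 ± 0.15 and 1.24 ± 0.13. Nrg1, the ligand with the best known roles in heart, Schwann cell and synapse development, moved within a much narrower range. It read 7.19 and 7.04 in ES cells, 6.55 and 6.41 in progenitors, 6.71 and 6.59 at TN day 2, and 7.07, 7.04 and 7.02 at TN day 6. It fell by 0.63 ± 0.13 into progenitors and rose by 0.39 ± 0.12 from TN day 2 to TN day 6, an increase that lost its call without TN day 2 wild-type array 2 (0.34, adjusted p = 0.14).

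Nrg2, a neuregulin expressed in brain, stayed between 6.02 and 6.43 in the wild-type arrays up to TN day 2. It then rose to between 6.96 and 7.06 at TN day 6, by 0.85 ± 0.13 (adjusted p = 4.6e-05). Nrg4, known from adipose tissue, read between 4.08 and 5.08 in all 28 arrays and was not called in any comparison, although its fall from ES cells to progenitors (-0.40, adjusted p = 0.0835) was called in 3 of 12 alternatives. Its highest group mean, 4.86, lay below 6.29, the median of all values on the arrays, so it was the 1 member that failed the filter on low values. Its low readings cannot be told apart from no expression.

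Among the receptors, Erbb4 rose most steeply. Its wild-type arrays read 4.77 and 5.33 in ES cells, 7.80 and 7.58 in progenitors, and 10.02 and 10.47 at TN day 2, with steps of 2.65 ± 0.17 and 2.55 ± 0.17. At TN day 6 it had fallen again to 9.41, 9.51 and 9.49, by 0.77 ± 0.16 (adjusted p = 0.000721), while its ligand Nrg3 was still rising. Erbb3 went the other way: 9.34 and 9.17 in ES cells, 6.85 and 6.67 in progenitors, then 5.54 and 5.74 at TN day 2, falls of 2.49 ± 0.20 and 1.12 ± 0.20. It then read 5.79, 5.68 and 5.79 at TN day 6, a difference of 0.12 with a 95% interval from -0.26 to 0.50.

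Erbb2, the shared dimer partner, peaked in progenitors. It read 8.65 and 8.46 in ES cells, 9.30 and 9.06 in progenitors, 7.67 and 7.42 at TN day 2, and 6.55, 6.63 and 6.41 at TN day 6. The rise into progenitors was 0.63 ± 0.19 (adjusted p = 0.00951) and lost its call without ES wild-type array 2 (adjusted p = 0.0779) or NP wild-type array 1 (0.0842). The falls that followed were 1.64 ± 0.19 and 1.01 ± 0.17. Egfr read 8.86 and 8.78 in ES cells and 7.51 and 7.24 in progenitors, a fall of 1.44 ± 0.25. At TN day 2 its arrays disagreed, with 7.05 in array 1 and 8.28 in array 2, and at TN day 6 they were low and close together, at 6.20, 6.16 and 6.07. At TN day 6 every wild-type array of Nrg2, Nrg3 and Erbb4 thus lay above the wild-type ES arrays. Every array of Nrg4, Egfr, Erbb2 and Erbb3 lay below them, with Nrg4 at low readings throughout, and the Nrg1 arrays overlapped. This comparison was not tested, and the share of all genes that separate in this way was not counted.

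**Figure D1:**
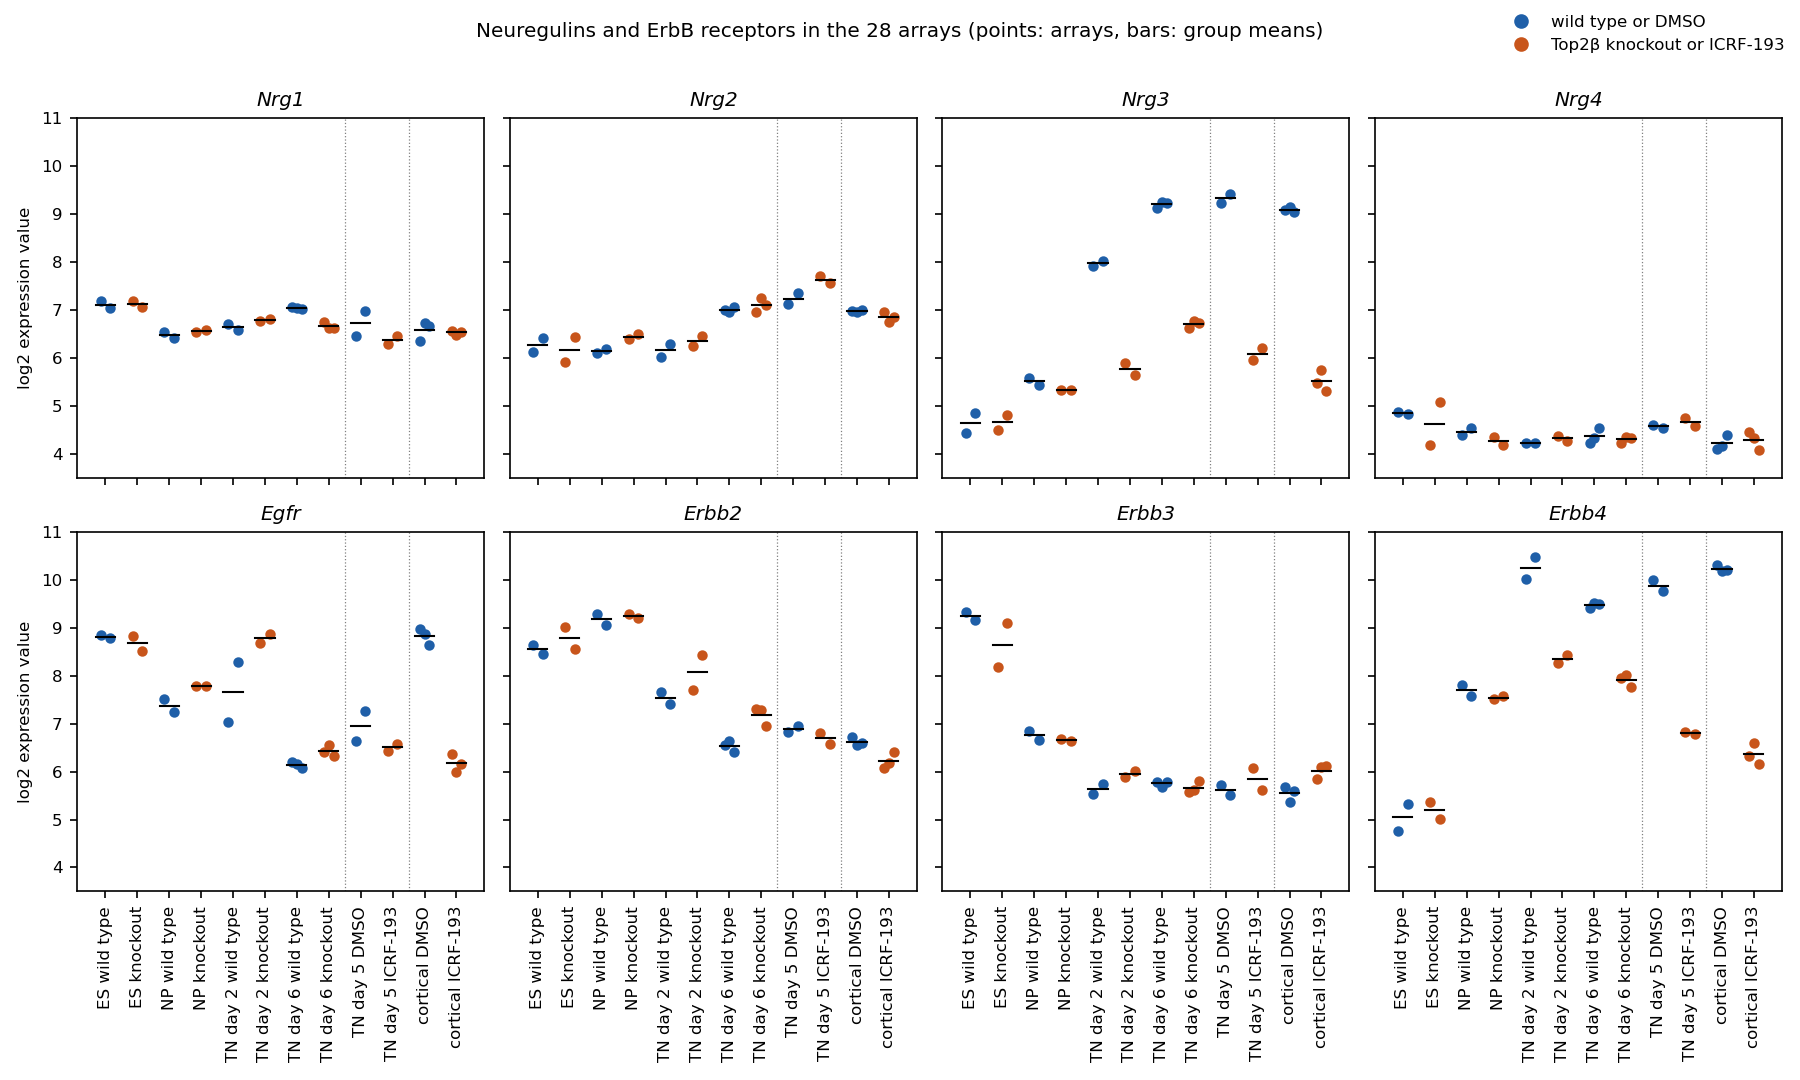
Log2 expression value of each of the 8 genes (vertical axis, 1 panel a gene) in the 12 groups (horizontal axis), with a point for each of the 28 arrays and a bar at each group mean; blue is wild type or DMSO and orange is Top2β knockout or ICRF-193. Nrg3 rises through the blue ES, NP, TN day 2 and TN day 6 groups, and Erbb4 rises to TN day 2 and is lower at TN day 6. For both genes the orange TN and cortical groups lie below the blue ones, while Nrg4 stays between 4.08 and 5.08.

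The cultured neurons were also set against cortical neurons, both with DMSO. The 2 kinds come from separate experiments, so their origin, handling and any array batch cannot be told apart. Only Egfr was called, higher in the cortical arrays by 1.89 ± 0.23 (adjusted p = 1.3e-06), against 24.4% of all genes called higher and 20.4% lower. Its arrays read 8.98, 8.87 and 8.64 in cortical neurons and 6.63 and 7.26 at TN day 5. In the same comparison 7 of 9 astrocyte genes and 5 of 11 oligodendrocyte lineage genes were called higher in the cortical arrays, and the part of these cells in the Egfr difference was not tested. For Nrg3 the difference was -0.24 with a 95% interval from -0.52 to 0.04, and for Erbb4 0.36 with an interval from 0.03 to 0.69 (adjusted p = 0.0737). Centring each array on its median shifted all genes in this comparison by 0.22 and called Erbb4 as well (0.57, adjusted p = 0.00737). It also turned the calls over all genes from 4865 higher and 4073 lower to 7532 and 1700.

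Loss of Top2β was examined next, stage by stage. In ES cells and progenitors limma called no member: at an unadjusted p under 0.05 there was 1 (Erbb3) in ES cells and 0 in progenitors. The background was also small, at 0.0853% of genes called higher and 0.266% lower in ES cells, and 0.381% and 0.246% in progenitors. At TN day 2, 1 member rose (Egfr) and 2 fell (Nrg3, Erbb4), against 5.49% and 5.97%. At TN day 6, 1 rose (Erbb2) and 3 fell (Nrg1, Nrg3, Erbb4), against 5.38% and 4.8%. The median log2 difference of the 8 members was 0.16 at TN day 2 and -0.08 at TN day 6, against -0.04 and 0.00 over all genes, so the receptors and ligands did not shift as a block.

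Nrg3 fell in knockout neurons. Its knockout arrays read 4.49 and 4.82 in ES cells and 5.33 and 5.34 in progenitors, where the difference of -0.18 had an interval from -0.48 to 0.12. They read 5.90 and 5.63 at TN day 2 and 6.63, 6.76 and 6.73 at TN day 6. The difference was -2.21 ± 0.15 at TN day 2, 4.62-fold lower (adjusted p = 8.16e-09), and -2.50 ± 0.12 at TN day 6, 5.66-fold lower (adjusted p = 1.15e-11). By size of fall it ranked 2 and 7 among the 19938 genes at these stages. Knockout neurons at TN day 2 thus had an Nrg3 level between that of progenitors and that of wild-type neurons.

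Erbb4 fell alongside. Its knockout arrays read 5.36 and 5.01 in ES cells, 7.52 and 7.57 in progenitors, 8.27 and 8.44 at TN day 2, and 7.96, 8.01 and 7.78 at TN day 6. The difference was -1.89 ± 0.17 at TN day 2, 3.71-fold lower (adjusted p = 6.04e-07), and -1.55 ± 0.14 at TN day 6, 2.94-fold lower (adjusted p = 1.02e-07). It ranked 7 and 56 among all genes by size of fall. No knockout TN array of either gene overlapped a wild-type array of its stage.

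Whether the knockout effect itself differed between neighbouring stages was tested as an interaction. From NP to TN day 2 the effect on Nrg3 changed by -2.03 ± 0.21 (adjusted p = 1.46e-05) and that on Erbb4 by -1.74 ± 0.25 (adjusted p = 0.000538), 2 of 8 members against 2.71% of all genes. The Nrg3 group means in progenitors, 5.52 in the wild type and 5.34 in the knockout, lay below 6.29, the median of all values on the arrays. Whether an Nrg3 fall of this size could show there was not tested. From ES to NP limma called no member (0 at an unadjusted p under 0.05), against 0.256% of all genes. From TN day 2 to TN day 6 it also called none (2 at an unadjusted p under 0.05, Nrg1 and Egfr), against 4.8%. For Nrg3 the last interval ran from -0.69 to 0.10 and for Erbb4 from -0.13 to 0.80.

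The other called members changed less. Nrg1 fell at TN day 6, where its knockout arrays read 6.76, 6.62 and 6.63 against 7.02 to 7.07, a difference of -0.37 ± 0.11 (adjusted p = 0.0299). This call was lost without any 1 of 5 of the 6 arrays (the exception was knockout array 1), with adjusted p-values up to 0.115, and after centring each array on its median (0.0557). At TN day 2 the Nrg1 knockout arrays read 6.77 and 6.81, a difference of 0.14 with an interval from -0.14 to 0.42. Nrg2 read 6.40 and 6.50 in knockout progenitors, 6.25 and 6.45 at TN day 2, and 6.95, 7.26 and 7.11 at TN day 6, and was not called at any stage.

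Erbb2 rose at TN day 6. Its knockout arrays read 7.31, 7.28 and 6.95, all above the wild-type arrays, a difference of 0.65 ± 0.15 (1.57-fold, adjusted p = 0.00707). At TN day 2 they read 7.71 and 8.44, a difference of 0.53 ± 0.19 that missed the threshold (adjusted p = 0.0761) and passed it without knockout array 1 (0.90, adjusted p = 0.00353). In the knockout at TN day 6, 7 of 8 epithelial, 8 of 11 progenitor and 11 of 11 cell cycle genes were called higher, against 5.38% of all genes. The epithelial list averaged 7.13, 7.21 and 6.19 in the 3 knockout arrays and 5.85 to 6.06 in the wild type, and the progenitor list 8.41 to 8.83 against 7.56 to 7.67. The Erbb2 value was lowest in knockout array 3. That array was also the lowest of the 3 for the epithelial, progenitor, cell cycle, mesenchymal, astrocyte and GABAergic neuron lists. It was not the lowest for the pan-neuronal, pluripotency and oligodendrocyte lineage lists. The part of epithelial, progenitor and dividing cells in the Erbb2 rise was not tested.

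Egfr rose at TN day 2, where the knockout arrays read 8.69 and 8.87, a difference of 1.12 ± 0.25 (2.17-fold, adjusted p = 0.00567). The wild-type arrays of 7.05 and 8.28 lay below both. Without wild-type array 1 the difference was 0.50 (adjusted p = 0.246), and without knockout array 2 it was 1.02 (adjusted p = 0.0947). The mean of 10 mesenchymal and fibroblast genes was 7.15 in wild-type array 1, 8.89 in wild-type array 2, and 8.80 and 9.10 in the knockout arrays. Of the 10, 3 (Col1a1, Acta2, Tagln) rose in the knockout, against 5.49% of all genes. The progenitor list ran the other way, at 9.40 in wild-type array 1, 8.72 in wild-type array 2, and 8.89 and 8.74 in the knockout arrays. Egfr was thus low in the same array in which the mesenchymal list was low, and the part of those cells was not tested. At TN day 6 the knockout arrays read 6.42, 6.55 and 6.32, a difference of 0.29 with an interval from -0.14 to 0.72, and in progenitors they read 7.78 and 7.79 (0.41, interval -0.12 to 0.93).

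Erbb3 was not called in the knockout at any stage. In knockout ES cells it read 8.19 in array 1 and 9.10 in array 2, against 9.34 and 9.17 in the wild type, a difference of -0.61 ± 0.20 (adjusted p = 0.178). Array 1 is the array that stood apart from the other ES arrays, and without it the difference was -0.15 (adjusted p = 0.922). Without array 2 it was -1.07 (adjusted p = 8.08e-05), and the count of genes called rose from 70 to 5018. Its knockout TN arrays lay between 5.57 and 6.02.

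**Figure D2:**
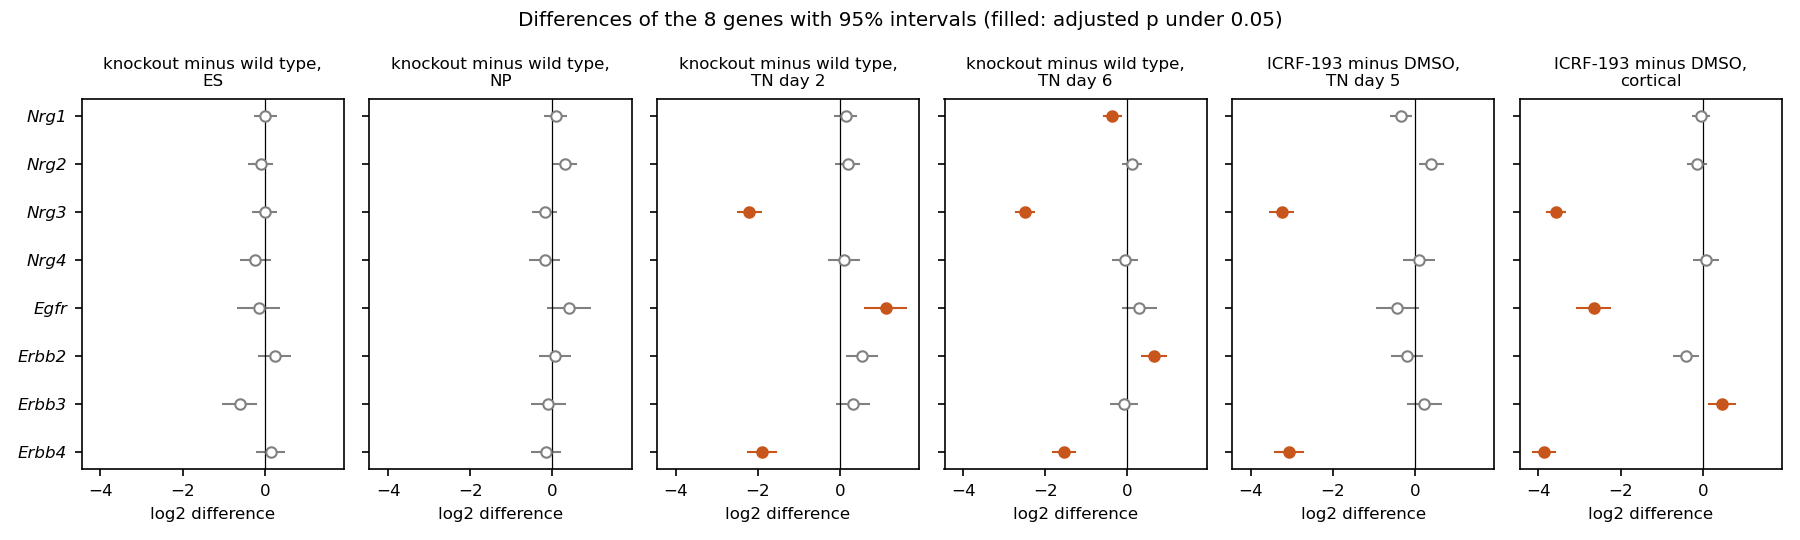
Log2 difference (horizontal axis) of each of the 8 genes between knockout and wild type at 4 stages and between ICRF-193 and DMSO in 2 kinds of neuron, with 95% intervals; filled points have an adjusted p under 0.05. Nrg3 and Erbb4 lie left of 0 in the last 4 panels, from -1.55 to -3.87, and no point is filled in the ES and NP panels.

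The drug experiments compared neurons given ICRF-193 with neurons given only the solvent. At TN day 5, 2 members fell with ICRF-193 (Nrg3, Erbb4) and none rose, against 6.37% of all genes called lower and 2.51% higher. In cortical neurons 3 fell (Nrg3, Egfr, Erbb4) and 1 rose (Erbb3), against 13.7% and 9.72%. Centring each array on its median shifted all genes by -0.12 in the cortical comparison and changed the calls over all genes from 1938 higher and 2726 lower to 792 and 4103. At TN day 5 it changed them from 501 and 1271 to 294 and 1579. The Nrg3, Erbb4 and Egfr falls kept their direction and call under every scaling tried. Top2b itself was not called in either drug comparison, while Top2a, the isoform of dividing cells, fell by 2.45 and 2.57.

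Nrg3 read 9.23 and 9.43 in the TN day 5 DMSO arrays and 5.96 and 6.21 with ICRF-193, a difference of -3.25 ± 0.15, 9.5-fold lower (adjusted p = 1.8e-12). In cortical neurons it read 9.08, 9.15 and 9.05 with DMSO and 5.48, 5.75 and 5.32 with the drug, a difference of -3.57 ± 0.12, 11.9-fold lower (adjusted p = 6.36e-15). It ranked 6 among all genes by size of fall in each of the 2 experiments. The treated cortical arrays lay on both sides of the wild-type progenitor values (5.45 and 5.59), and the treated TN day 5 arrays lay above them.

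Erbb4 averaged 9.88 ± 0.17 (SD, n = 2) in the TN day 5 DMSO arrays and read 6.83 and 6.79 with ICRF-193, a difference of -3.07 ± 0.17, 8.38-fold lower (adjusted p = 6.6e-11). In cortical neurons it read 10.32, 10.18 and 10.21 with DMSO and 6.32, 6.61 and 6.16 with the drug, a difference of -3.87 ± 0.14, 14.6-fold lower (adjusted p = 2.01e-14). These values ranked 12 and 3 among all genes. The drug-treated Erbb4 levels lay below those of progenitors (7.52 to 7.80), and treated and untreated arrays did not overlap.

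Egfr differed between the neuron types. In cortical neurons it fell from 8.98, 8.87 and 8.64 with DMSO to 6.37, 5.99 and 6.16 with ICRF-193, a difference of -2.66 ± 0.21 (6.3-fold, adjusted p = 2.93e-09). At TN day 5 the treated arrays read 6.43 and 6.58, and the difference of -0.44 had an interval from -0.96 to 0.09. The test of the difference between the 2 drug effects gave -2.22 ± 0.33 for Egfr (adjusted p = 0.000135) and -0.80 ± 0.22 for Erbb4 (adjusted p = 0.0421), against 4.37% of all genes called. The Erbb4 value lost its call in 12 of 19 alternatives, with adjusted p-values up to 0.172, among them the fits without 9 of the 10 arrays in turn; the exception was cortical ICRF-193 array 2. For Nrg3 this difference was -0.33 with an interval from -0.72 to 0.07.

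Markers of glia and of progenitors moved with Egfr in the cortical arrays, where 13.7% of all genes fell and 9.72% rose. Of 9 astrocyte genes 7 fell and none rose, among them Aldoc (from 11.24 to 8.82), Aqp4 (from 6.50 to 4.44) and Gfap (from 6.28 to 5.17), and the mean of the list lay between 7.84 and 8.04 with DMSO and between 6.43 and 6.46 with the drug. Of 11 oligodendrocyte lineage genes 6 fell, among them Pdgfra (from 9.57 to 5.83), Olig2 (from 7.76 to 5.24) and Olig1 (from 8.07 to 5.79). Of 11 progenitor and radial glia genes 8 fell and 1 rose, and the list averaged 8.41 to 8.43 with DMSO and 7.31 to 7.42 with the drug. All 11 measured cell cycle genes fell as well, while 7 of 8 microglial genes rose. At TN day 5 the mesenchymal list averaged 7.55 and 8.37 in the DMSO arrays, and the progenitor list 7.62 and 8.25. Both had the same order as the Egfr values of 6.63 and 7.26 in these arrays. So had the cell cycle, astrocyte, pan-neuronal and GABAergic neuron lists, while the epithelial, pluripotency and oligodendrocyte lineage lists had the reverse order. The 2 arrays are too few to show a link. The progenitor list averaged 6.56 and 6.62 in the treated TN day 5 arrays, where 6 of its 11 genes fell, against 6.37% of all genes. The part of these cells in the Egfr values was not tested.

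**Figure D3:**
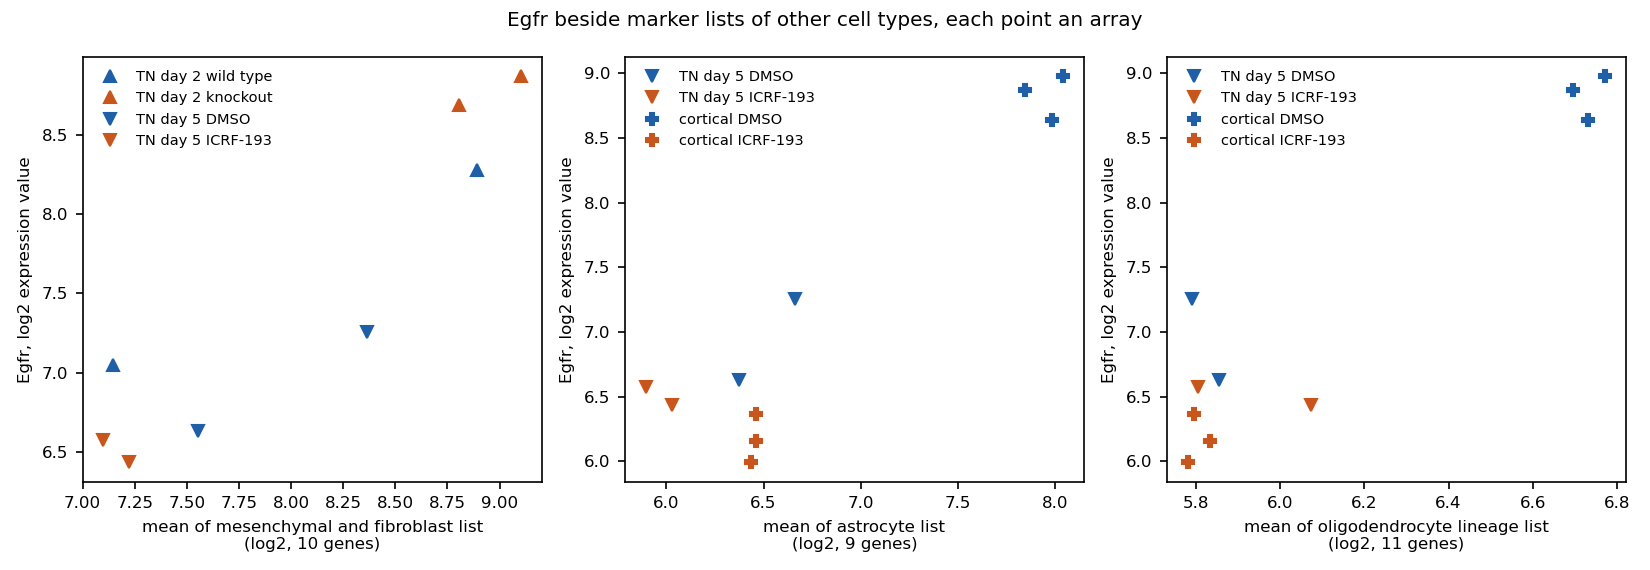
Egfr (vertical axis, log2 expression value) against the mean log2 value of the mesenchymal and fibroblast (10 genes), astrocyte (9) and oligodendrocyte lineage (11) lists, 1 point an array, in the TN day 2, TN day 5 and cortical groups as marked. The wild-type TN day 2 array with a mesenchymal mean of 7.15 has the Egfr value of 7.05, and the cortical DMSO arrays are high on both axes of the other panels.

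Erbb3 rose in ICRF-193-treated cortical neurons from 5.68, 5.37 and 5.59 to 5.84, 6.10 and 6.11, a difference of 0.47 ± 0.16 (1.38-fold, adjusted p = 0.0423). The call was lost in 8 of 15 alternatives, among them centring each array on its median (0.35, adjusted p = 0.104), quantile normalization (0.33, 0.183) and leaving out any 1 of 5 of the 6 arrays (adjusted p from 0.0522 to 0.157; the exception was ICRF-193 array 1). Its TN day 5 arrays overlapped, at 5.72 and 5.52 with DMSO and 6.08 and 5.61 with the drug. All these cortical and TN day 5 readings of Erbb3 lay below 6.29, the median of all values on the arrays, so low signal limits them. Sox10, a defining gene of the lineages that carry Erbb3, was at 6.85 with DMSO and 6.34 with the drug in cortical neurons.

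Erbb2 missed the threshold in both drug experiments, in cortical neurons by a margin that the settings decided. It read 6.73, 6.55 and 6.59 in cortical DMSO arrays and 6.07, 6.18 and 6.40 with ICRF-193, a difference of -0.41 with an interval from -0.73 to -0.08 (adjusted p = 0.063). The treated arrays lay below all DMSO arrays, and the fall was called in 5 of 15 alternatives: median centring (-0.52, adjusted p = 0.0244), quantile normalization (-0.48, 0.0352), only the compared arrays (0.0124), array weights (0.0049) and the fit without ES knockout array 1 (0.0389). At TN day 5 Erbb2 read 6.82 and 6.95 against 6.80 and 6.58. Nrg1 read 6.47 and 6.98 at TN day 5 with DMSO and 6.30 and 6.46 with ICRF-193, a difference of -0.34 (adjusted p = 0.119) that turned on the DMSO arrays: it was -0.60 and called without DMSO array 1 (adjusted p = 0.00762) and -0.09 without DMSO array 2 (0.871). In cortical neurons Nrg1 read 6.34, 6.73 and 6.66 against 6.57, 6.49 and 6.55, where its interval ran from -0.27 to 0.18. Nrg2 read 7.12 and 7.36 at TN day 5 with DMSO and 7.71 and 7.56 with the drug, the highest group of this gene (0.40 ± 0.15, adjusted p = 0.0952). In cortical neurons Nrg2 averaged 6.98 ± 0.02 (SD, n = 3) with DMSO and read 6.95, 6.75 and 6.84 with the drug. Quantile normalization called both the Nrg1 fall and the Nrg2 rise at TN day 5.

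Ordered over all 12 groups, Nrg3 was highest in TN day 5 DMSO (9.33 ± 0.14, SD, n = 2), TN day 6 wild type (9.21 ± 0.07, n = 3) and cortical DMSO (9.09 ± 0.05, n = 3), where neighbours overlapped. A gap without overlap separated them from TN day 2 wild type (7.97 ± 0.07, n = 2), and a further gap separated that group from all knockout, drug-treated and earlier groups, of which TN day 6 knockout was the highest (6.71 ± 0.07, n = 3). Erbb4 was highest in TN day 2 wild type (10.24 ± 0.32, n = 2) and cortical DMSO (10.23 ± 0.07, n = 3), which overlapped. TN day 5 DMSO (9.88 ± 0.17, n = 2) and TN day 6 wild type (9.47 ± 0.05, n = 3) followed without overlap, then TN day 2 knockout (8.35 ± 0.12, n = 2). The 4 groups of unperturbed neurons were thus the top 4 groups of both genes.

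Over the 12 group means the Pearson correlation of Nrg3 with Erbb4 was 0.892. The groups share the stage of the cells, so this is a description only. Each other member had a correlation with Nrg3 below that value, from 0.48 for Nrg2 to -0.69 for Erbb3. The genes whose 12 group means were most like Nrg3 were Grid1 (0.984), Unc5d (0.981) and Mdga2 (0.980), and those most like Erbb4 were Ptprd (0.967), Nrxn3 (0.964) and Fstl5 (0.962). For Erbb2 they were Tcf7l2 (0.990), Shroom3 (0.989) and Hmga2 (0.987), and for Erbb3 Frrs1 (0.995), Map7d3 (0.993) and Slc16a10 (0.993). Egfr had weaker likenesses, led by Mmp14 (0.925), Mcfd2 (0.910) and Zfp607a (0.904). Nrg1 was led by Fbxl4 (0.922), Grem1 (0.904) and Tfdp1 (0.896), and the genes most like Nrg2 were Zfp872 (0.979), Ppp1r42 (0.967) and Ppp3r2 (0.965). Those most like Nrg4 were Ttll6 (0.967), Pgc (0.965) and Itpr3os (0.964). Low signal limits some of these likenesses. The highest group means of Zfp872, Ppp1r42 and Ppp3r2 were 5.33, 3.88 and 3.93, below 6.29, the median of all values. Those of Zfp607a (6.06) and Itpr3os (5.38) lay below it too, as did Nrg4 itself.

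**Figure D4:**
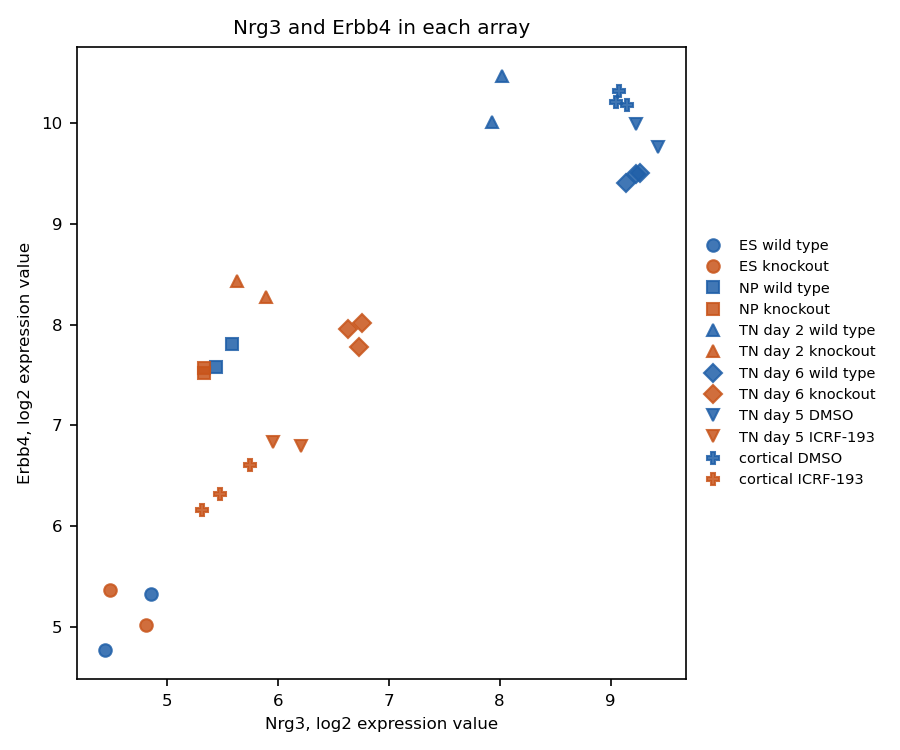
Erbb4 (vertical axis) against Nrg3 (horizontal axis), both as log2 expression values, 1 point for each of the 28 arrays, with the shape giving the stage or experiment and orange marking knockout or ICRF-193. The wild-type and DMSO neurons lie at the upper right, with Nrg3 from 7.93 to 9.43, and every knockout or drug-treated neuron lies below an Nrg3 of 6.8.

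Neuronal marker genes gave a mixed picture beside the Nrg3 and Erbb4 falls. The shares of all genes that rose and fell were 5.49% and 5.97% in the knockout at TN day 2, and 5.38% and 4.8% at TN day 6. With the drug they were 2.51% and 6.37% at TN day 5, and 9.72% and 13.7% in cortical neurons. Several of the counts below are small beside such shares. Of 14 pan-neuronal genes 8 fell in the knockout at TN day 2 (median -0.48), and the list averaged 10.53 and 10.26 in the knockout arrays against 10.94 and 10.88. At TN day 6, where Nrg3 was 5.66-fold lower, 2 rose and 1 fell, and the list averaged 11.02 against 11.06. With ICRF-193, 2 rose and 3 fell at TN day 5, and 2 rose and 4 fell in cortical neurons, with Syt1 (-2.24) the largest fall there. Of 12 GABAergic genes, the class that carries Erbb4 in the cortex, 1 rose and 1 fell at TN day 2 and at TN day 6, 2 rose and none fell at TN day 5, and 2 rose and 3 fell in cortical neurons. Gad2 rose with the drug in both kinds of neuron, from 8.55 to 9.28 and from 9.34 to 10.14, while Calb2, Npy and Sst fell in cortical neurons by 1.59, 1.36 and 0.97. Of 10 measured glutamatergic genes, none rose and 4, 3 and 3 fell at TN day 2, TN day 6 and TN day 5 with the drug, while 4 rose and 3 fell in treated cortical neurons. Slc17a6 fell in the first 3 of these (by 1.34, 1.96 and 1.54) and rose in the last (0.96). Other members did not follow it: at TN day 6 Slc17a7 was at 5.73 in the wild type and 5.75 in the knockout and Tbr1 at 5.12 and 5.07, and at TN day 5 Slc17a7 was at 5.85 with DMSO and 6.18 with the drug, none of them called.

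The members differ widely in the length of genome they span in RefSeq (GRCm38.p6). Nrg3 spans 1108 kb, Nrg1 1084 kb and Erbb4 1077 kb, among 54 measured genes over 1000 kb, whereas Nrg2 spans 183 kb, Egfr 162 kb, Nrg4 63.4 kb, Erbb2 25.2 kb and Erbb3 22.1 kb. Over all measured genes the share that fell was larger in longer genes. Of 212 genes over 500 kb, 37.3% fell in the knockout at TN day 2 and 53.8% at TN day 6, and 59.4% and 73.6% fell with ICRF-193 at TN day 5 and in cortical neurons. Of 15247 genes under 50 kb, 4.26%, 3.51%, 4.67% and 11.1% fell. Nrg3 and Erbb4 thus fell in a class of genes in which many fell, and beyond the median of that class, which was -0.32, -0.54, -0.89 and -0.97.

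Nrg1 belongs to the same class by span and did not share the size of these falls. Its differences in the same 4 comparisons were 0.14, -0.37, -0.34 and -0.04, all nearer to 0 than the class median and of opposite sign at TN day 2. The TN day 5 value ran from -0.60 to -0.09 when 1 array was left out. All Nrg1 group means lay between 6.38 and 7.13, near 6.29, the median of all values on the arrays. Whether its probe set could show a fall as large as those of Nrg3 and Erbb4 was not tested. Egfr, in the class from 100 to 200 kb, fell in treated cortical neurons, where 20.1% of its class fell. Of the 2 shortest members, Erbb2 was called higher in the knockout at TN day 6 and Erbb3 in treated cortical neurons. Median centring and quantile normalization both removed that Erbb3 call and called Erbb2 lower in treated cortical neurons. The calls of the short members there thus turned on the scaling, but their directions did not. Over the alternatives Erbb3 ran from 0.33 to 0.56 and Erbb2 from -0.52 to -0.33. No test of span within the family was made, since it has 8 genes.

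**Figure D5:**
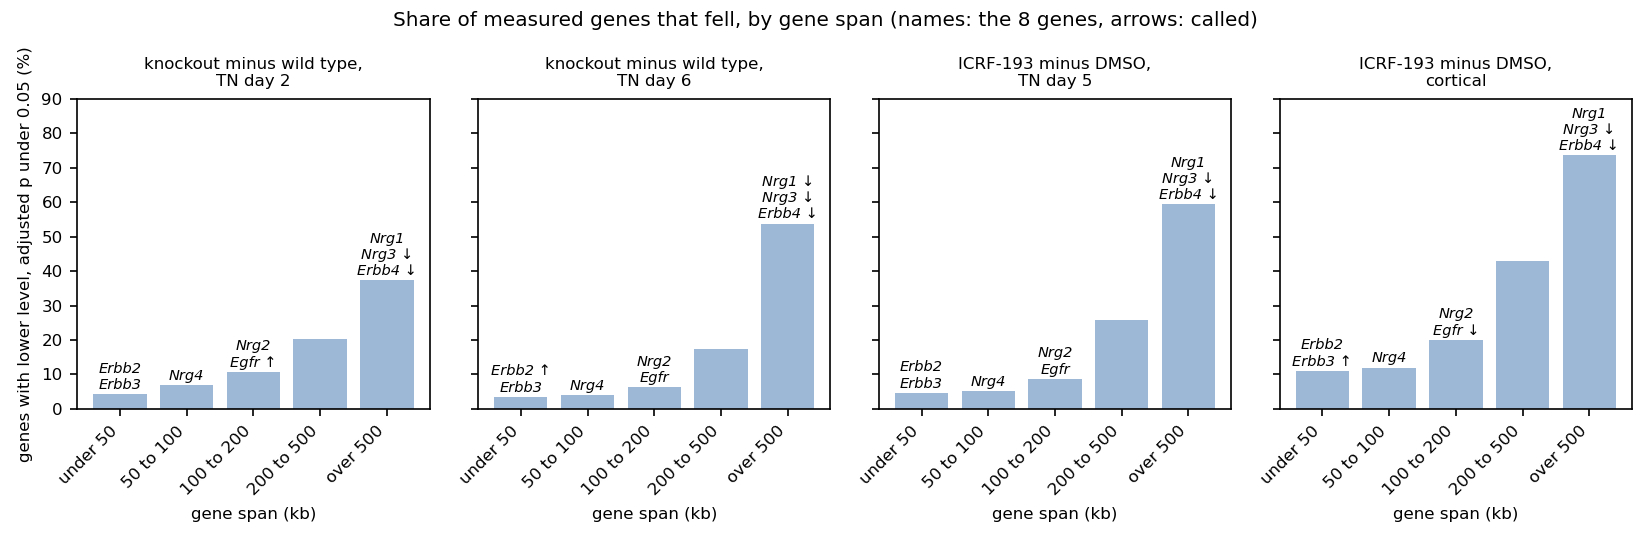
Percentage of measured genes that fell at an adjusted p under 0.05 (vertical axis) in 5 classes of gene span (horizontal axis, kb), 1 panel for each of 4 comparisons; the names stand over the class of each of the 8 genes and an arrow marks a member called lower or higher. The bar over 500 kb is the tallest in each panel, from 37.3% to 73.6%, and holds Nrg1, Nrg3 and Erbb4.

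The rest of the pathway was counted from lists of its genes. Over all genes, 5.49% rose and 5.97% fell in the knockout at TN day 2, and 5.38% and 4.8% at TN day 6. With ICRF-193 the shares were 2.51% and 6.37% at TN day 5, and 9.72% and 13.7% in cortical neurons. Of 6 measured ligands of the EGF family outside the neuregulins, none was called in the knockout at any stage or in treated cortical neurons, and at an unadjusted p under 0.05 limma gave only Hbegf (NP, TN day 2 and cortical) and Egf (cortical). Btc, a ligand of Egfr and ErbB4, was the 1 called with the drug at TN day 5 (0.41 higher, adjusted p = 0.0211). Of 7 measured genes that shed or process the ligands, Adam17, the main sheddase of EGF-family ligands, rose in the knockout at TN day 6 (0.45, adjusted p = 0.00951) and fell in treated cortical neurons (-0.34, adjusted p = 0.035), where Ncstn, a subunit of γ-secretase, rose by 0.27. Of 5 measured receptor partners and scaffolds, 1 (Muc4) rose in treated cortical neurons, by 0.40, and limma called none in the other 5 knockout and drug comparisons. At an unadjusted p under 0.05 those 5 gave Grb7 in ES cells and at TN day 5 and, at TN day 2, Dlg4, the postsynaptic scaffold that binds ErbB4.

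Among 11 measured adaptors and kinases downstream, the neuronal adaptor Shc3 was the gene that fell most. It fell from 10.08 to 8.58 in the knockout at TN day 6 (-1.50, adjusted p = 1.83e-07), from 9.33 to 7.50 with ICRF-193 at TN day 5 (-1.83, adjusted p = 2.17e-07) and from 10.60 to 9.20 in treated cortical neurons (-1.40, adjusted p = 2.06e-07). Its relative Shc1, the adaptor of most other cells, rose in the knockout at TN day 2 (1.16) and TN day 6 (0.56). The remaining calls were Grb2 at TN day 2 (-0.32) and Pik3ca in treated cortical neurons (0.34).

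Of 12 measured genes for feedback and receptor turnover, 1 rose and 3 fell in the knockout at TN day 2, against 5.49% and 5.97% of all genes. At TN day 6, 2 rose and 1 fell, against 5.38% and 4.8%. With the drug 2 fell at TN day 5, against 6.37%, and 1 rose and 3 fell in cortical neurons, against 9.72% and 13.7%. Lrig1, which lowers the amount of ErbB receptors, fell in the knockout at TN day 2 (-1.17) and in treated cortical neurons (-1.12), while Lrig3 rose in the knockout at TN day 2 (1.06). Lrig2 also fell in the knockout at TN day 2. Errfi1, an inhibitor of the ErbB kinase domain, fell at TN day 2 (-0.50) and at TN day 5 with the drug (-0.49) but rose in the knockout at TN day 6 (0.48). Dusp6, an ERK phosphatase, fell with the drug by 0.95 at TN day 5 and 0.43 in cortical neurons, and Spry4 fell in the knockout at TN day 6 (-0.84) and in treated cortical neurons (-1.17). The gene that rose beside Errfi1 at TN day 6 and the 1 that rose in cortical neurons are not named here. Over the same list limma called 0 genes in the knockout ES cells and progenitors, with 1 (Spry2) and 2 (Dusp6, Spry1) at an unadjusted p under 0.05.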

How the data were processed

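The series holds 28 arrays in 12 groups, assigned from the labels. The deposited values are log2 expression values per probe set, for which the submitters' processing notes name oligo 1.14.0; how the authors summarised and normalized them, and on which genome build, is not stated in the sources used here. Values ran from 1.96 to 14.0. Of 35556 probe sets, 21789 carried 1 gene symbol, 1621 several and 12146 none. Where a gene had several such probe sets (999 genes), only that of highest mean was used, leaving 19938 genes. A further probe set shared by Erbb2 and another gene was not used.

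All 12 group means were fitted at once in limma 3.58.1 (R 4.3.3; 16 residual degrees of freedom). Its p-values were adjusted by Benjamini-Hochberg over all genes; a call is an adjusted p under 0.05. Errors of differences are the model's SE; those of group means are SDs. With 2 or 3 arrays a group, their number limits the precision: the median SE of a difference was 0.14 (2 against 2) and 0.12 (3 against 3). In simulated data of this design, genes were changed at TN day 2 knockout only. All 100 genes changed by 2 and 87 of 100 changed by 1 on the log2 scale were recovered. The simulated noise was independent and of equal spread in every group. The groups here differ in spread, so this recovery does not give the sensitivity in these data. All 8 members are named in every comparison. From pathway and marker lists, the genes named were taken from those called, up to 4 each way, or from the first of the list. Not every called gene is named. Likeness is Pearson's r over the 12 group means, top 3 genes. Spans were matched for 19919 genes.

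Members, lists and tests were chosen with earlier results of these data known. Alternatives were median centring, quantile normalization, fits of the compared arrays alone, array weights, a variance trend, a replicate block, a filter on low values, means over probe sets, and leaving out each array; 2 were added after seeing the data, a crossed block in NP and a fit without ES knockout array 1.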

Additional observations from a re-analysis of the deposited data

Results flagged for a closer look

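For 4 member effects the difference between stages or neuron types itself passed the test. The knockout effect on Nrg3 differed by -2.03 (log2, TN day 2 minus NP) (adjusted p = 1.46e-05), with differences of -2.21 and -0.18 at the 2 stages. Nrg3 read low in progenitors (group means 5.52 and 5.34), and whether so large a fall could show there was not tested. For Erbb4 the same comparison gave -1.74 (adjusted p = 0.000538), from -1.89 and -0.15. The ICRF-193 effect on Egfr differed by -2.22 (cortical minus TN day 5) (adjusted p = 0.000135), from -2.66 and -0.44, and Egfr started 1.89 higher in the cortical DMSO arrays. For Erbb4 this difference was -0.80 (adjusted p = 0.0421), from -3.87 and -3.07. No group held 4 or more arrays, so no single array was tested as an outlier.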

How the results depend on the processing

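Over 484 values of the 34 called member differences in the alternatives, 0 reversed and 32 lost their call, spread over 6 differences; the other 28 kept it in every alternative run. Of the differences not called as reported, 19 were called in at least 1 alternative (31 of 1150 values), among them Erbb2 with ICRF-193 in cortical neurons in 5 of 15. The 6 that lost a call were Egfr (knockout, TN day 2), Nrg1 (knockout, TN day 6, and wild type, TN day 6 minus TN day 2), Erbb3 (ICRF-193, cortical), Erbb2 (wild type, NP minus ES) and Erbb4 (cortical minus TN day 5 drug effect). Leaving out 1 array in turn, the number of members called ranged from 0 to 2 in ES knockout cells, from 0 to 2 for the NP minus ES knockout effect, from 0 to 1 for its TN day 6 minus TN day 2 change, from 1 to 2 for the drug effect in cortical against TN day 5 cells, and from 1 to 2 for cortical against TN day 5 DMSO. That last number, 1 as reported, was 2 with median centring, 2 with quantile normalization, 2 without ES knockout array 1 and 3 with only the compared arrays. Quantile normalization called 4 members in place of 2 for ICRF-193 at TN day 5, and only the compared arrays called 1 in place of 0 for the TN day 6 minus TN day 2 change. Array weights and the replicate block each called 1 in place of 2 for the difference between drug effects. Leaving out 1 array also gave from 3 to 4 members, in place of 4, both in the knockout at TN day 6 and with ICRF-193 in cortical neurons. The counts for the knockout at TN day 2, ICRF-193 at TN day 5 and the TN day 2 minus NP knockout effect moved too. Those fits left 1 array in a group. The cause was not tested.

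The correlation of same-numbered arrays' deviations was 0.38 at TN day 5, 0.14 at TN day 2, 0.04 in ES cells, -0.23 in NP, from -0.02 to 0.07 at TN day 6 and from -0.06 to -0.01 in cortical neurons. In the stages with 3 pairs none was over 0.1, and stages with 2 pairs are too few to show a pairing, so the numbers were not taken to pair the arrays. With the replicate block, ICRF-193 called 3 members in place of 4 in cortical neurons, without Erbb3 (adjusted p = 0.051). The crossed block in NP called 0 members and 121 genes, against 110 with the block and 125 without. No block could be made for cortical against TN day 5 DMSO, since the numbers come from separate experiments.

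Counts over all genes moved by over 1.5 times in 11 of the comparisons. The fits of only the compared arrays called 0 (ES), 315 (TN day 2) and 385 (ICRF-193, TN day 5) genes in place of 70, 2284 and 1772, and 7960 in place of 4664 in cortical neurons, 201 in place of 125 (NP). Array weights called 0 (ES), 251 (NP), 3816 (TN day 6, in place of 2030), 742 (TN day 5) and 8967 (cortical). Without ES knockout array 1 the fit called 377 (NP), 3494 (TN day 2) and 2702 (TN day 5) in place of 125, 2284 and 1772. Leaving out 1 array gave 5 to 5018 genes in ES cells, 37 to 72 in NP, 504 to 2364 at TN day 2 and 684 to 2291 with ICRF-193 at TN day 5. It gave 5577 in place of 8938 without TN day 5 DMSO array 1 for cortical against TN day 5. The knockout effect, NP minus ES, had 51 genes, 0 with only the compared arrays or array weights, and 17 to 3172 leaving out 1 array. TN day 2 minus NP had 541, 188 with only the compared arrays, 1378 without ES knockout array 1 and 112 to 850 leaving out 1 array. TN day 6 minus TN day 2 had 957, 1555 with array weights, 1924 without ES knockout array 1 and as few as 389 leaving out 1 array. The cortical minus TN day 5 drug effect had 871, and 1486 without ES knockout array 1. Centring changed the calls from 17 higher and 53 lower to 5 and 46 in ES cells, from 275 and 266 to 160 and 301 for the TN day 2 minus NP knockout effect, and from 336 and 535 to 231 and 581 for the cortical minus TN day 5 drug effect. Signal near background limits Nrg4. Among other low readings, the group means of Nrg3 in ES cells and progenitors, and of Erbb3 in all TN and cortical groups, also lay below the median of all values.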
